A study of Homo sapiens with 18 samples.

Results

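Complement is a cascade of plasma and cell-surface proteins that marks and destroys cells, and 9 genes of this system were described here across 3 mammary epithelial cell lines and their CD10 fractions. They were C1R and C1S, the proteases of the first component of the classical pathway; C3, the central component, and CFB, the protease precursor that pairs with its fragment C3b in the alternative pathway; CFI, the protease that inactivates C3b; CD46 and CD55, membrane proteins that limit C3 cleavage; CD59, the membrane inhibitor of the terminal pore; and PROS1, protein S, an anticoagulant cofactor that binds the complement inhibitor C4BP. The genes were fixed by name, and each was read from the probe set with the highest mean log2(intensity + 1) over the 18 arrays. All 9 of the 9 genes lay above the level filter, among 12171 genes tested of 19775 with a probe set.

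The RNA came from MCF10A-CT, the immortalised, non-malignant human breast line MCF10A kept as control in standard medium, and from MC26 and M1B26, which were obtained from MCF10A by prolonged exposure to BMP2 and IL6. MC26 arose from unsorted MCF10A cells, whereas M1B26 arose from cells sorted for the receptor BMPR1B and from 3 expanded soft-agar clones, so that a difference of M1B26 from the others cannot be told apart from the selection of clones. The IL6 dose was 10 ng/ml, while that of BMP2 is 5 ng/ml in the sample labels and 10 ng/ml in the growth protocol. Each line was measured unsorted, as CD10- and as CD10+ cells, giving 9 groups of 2 arrays labelled as biological replicates. Nothing states whether these were separate cultures, so the p-values measure the spread between these samples alone. The treatment protocol has cells either frozen after trypsin or stained and sorted, so that sorting and its handling cannot be told apart from the population in comparisons of sorted with unsorted cells. CD10 is a membrane endopeptidase encoded by MME.

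Once C1q has bound a target, C1R activates C1S, which cleaves C4 and C2, and all pathways meet at C3, whose fragment C3b tags surfaces and, with CFB, forms an enzyme that cleaves more C3. Host cells hold this in check with CD46 and CD55 on their membranes, with CFI, which needs a cofactor such as CD46, and with CD59. The liver makes most circulating complement, but epithelial cells also make several components, and CFB, C3, C1R and C1S are known as genes that inflammatory cytokines induce.

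Among the 9 genes, RefSeq promoter sequence of build GRCh38.p14 was at hand for 7, namely C1R, CFB, CFI, CD46, CD55, CD59 and PROS1. In these 250 bases upstream of the start site, both strands were searched for a STAT element (TTCNNNGAA, the letters bound by STAT factors, through which IL6 signals), the interferon-stimulated response element (ISRE), a C/EBP element (TTGNNNAAT) and the NF-kB element. The STAT letters were present in 3 of the 7 promoters, those of CFB, CD59 and PROS1, against 6.775% of all 27305 promoters. The NF-kB element (9.573% of promoters) and the ISRE (3.073%) were each present in 1 of the 7, that of CFB, and the C/EBP letters (10.73%) in 0 of the 7. A match describes letters and does not show a bound site. CFI, C1R, CD46 and CD55 had none of these letters. Whether any match bears on the differences between the groups was not tested. The 3 promoters with STAT letters are shown as those of the 7 that hold a match; capitals mark the matches, which in CFB are, in reading order, the ISRE, the NF-kB and the STAT element and in the others the STAT element.
CFB (chr6:31945845-31946094, + strand): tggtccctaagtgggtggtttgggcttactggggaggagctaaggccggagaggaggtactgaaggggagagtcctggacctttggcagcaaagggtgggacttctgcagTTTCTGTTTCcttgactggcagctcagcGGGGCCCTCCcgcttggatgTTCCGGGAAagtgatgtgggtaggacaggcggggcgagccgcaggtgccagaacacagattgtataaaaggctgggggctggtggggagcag
PROS1 (chr3:93973897-93974146, - strand): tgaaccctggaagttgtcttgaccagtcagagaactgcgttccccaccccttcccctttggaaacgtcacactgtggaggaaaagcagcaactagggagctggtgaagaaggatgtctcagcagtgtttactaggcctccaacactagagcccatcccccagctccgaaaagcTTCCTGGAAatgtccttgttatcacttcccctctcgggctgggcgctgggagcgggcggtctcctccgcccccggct
CD59 (chr11:33736480-33736729, - strand): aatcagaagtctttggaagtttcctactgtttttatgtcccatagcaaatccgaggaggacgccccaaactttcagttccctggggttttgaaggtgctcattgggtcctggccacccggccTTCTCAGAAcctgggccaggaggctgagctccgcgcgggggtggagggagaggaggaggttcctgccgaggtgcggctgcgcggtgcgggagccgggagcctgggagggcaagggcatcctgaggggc
In CFB the STAT letters lay 92 to 84 bases before the start site, in PROS1 77 to 69 and in CD59 128 to 120. The ISRE letters of CFB lay 140 to 131 and its NF-kB letters 112 to 103 bases before the start, and the matches did not overlap.

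**Figure D1:**
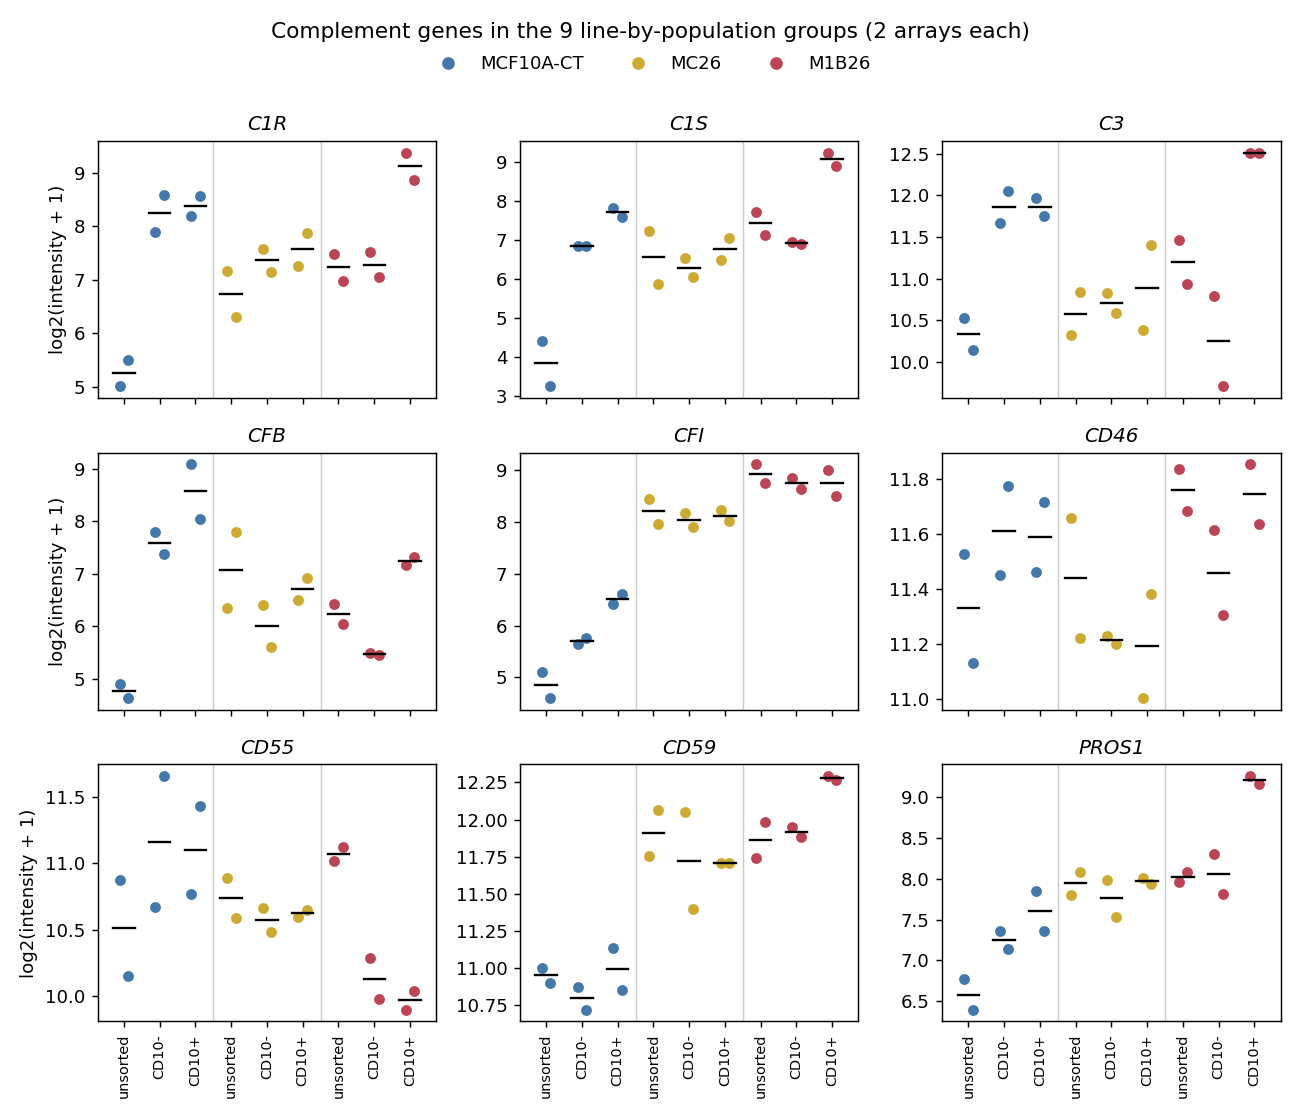
Log2(intensity + 1) of the 9 complement genes (vertical axes, each with its own scale) in the 9 groups, with the points showing the 2 arrays of a group and the black lines their mean. C1R, C1S, C3, CD59 and PROS1 had their highest mean in M1B26 CD10+ cells, CFB had its highest in MCF10A-CT CD10+ cells, and CFI rose in a step from MCF10A-CT to MC26 and M1B26.

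C1S, CFI, C1R and CFB varied most over the 9 groups, and CD46 least. Intensities were highest for C3 (lowest, median and highest of the 18 arrays 835, 1897 and 5853), CD59 (1688, 3386 and 5014), CD46 (2055, 2887 and 3703) and CD55 (953, 1615 and 3228), but levels of different probe sets are not comparable as amounts. C1S spanned 8.48 to 604, C1R 31.3 to 664, CFB 23.9 to 540, CFI 23.3 to 553 and PROS1 83.2 to 611. The group means of C1S spanned 5.24 on the log2 scale, those of CFI 4.08, of C1R 3.87 and of CFB 3.80, against a median span of 1.03 over all genes tested. The span of CD46, 0.57, was below that median. When each gene's 9 groups were put in order of level, 62 of the 72 neighbouring pairs did not differ beyond the 95% interval of their difference. The gaps that did included the steps of CFI between its 4 lowest groups, which were the 3 populations of MCF10A-CT and then MC26 CD10- cells, and the step in C1S from unsorted MCF10A-CT to the next group up. The unsorted MCF10A-CT value of C1S was the only group mean of the 9 genes near background (13.2 on the intensity scale, filter at 14.3), so the size of the C1S differences from that group is uncertain.

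In M1B26, CD10+ cells carried higher RNA levels of both classical-pathway proteases, of C3, of CFB and of PROS1 than CD10- cells. The comparison asks which genes differ with membrane CD10 within a line. MME, the check of the sort, read 56.4 and 15.9 in CD10- and 1269 and 1021 in CD10+ M1B26 cells. C3 read 1767 and 835 in the 2 CD10- arrays and 5853 and 5840 in the CD10+ arrays. Both CD10+ arrays stood above every other array of the series for C3. The difference was 2.27 on the log2 scale (SE 0.35, limma adjusted p = 7.52e-04, 4.81-fold).

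C1S, which as part of C1 cleaves C4 and C2, read 122 and 118 in CD10- and 604 and 472 in CD10+ M1B26 cells. C1R, which activates C1S and whose gene lies close to that of C1S on chromosome 12 in RefSeq, read 182 and 132 against 664 and 467. For both genes the 2 CD10+ arrays were the highest of the 18. C1S differed by 2.15 (SE 0.42, limma adjusted p = 5.32e-03) and C1R by 1.84 (SE 0.36, limma adjusted p = 4.62e-03). CFB read 44.0 and 42.6 in CD10- and 143 and 159 in CD10+ cells, a difference of 1.77 (SE 0.43, limma adjusted p = 0.0205), with both fractions below the CFB arrays of sorted MCF10A-CT. PROS1 read 316 and 224 against 611 and 570, the 2 highest PROS1 values of the series, and differed by 1.15 (SE 0.25, limma adjusted p = 0.0105).

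The regulators did not pass in this comparison. CFI read 462 and 397 in CD10- and 512 and 359 in CD10+ M1B26 cells, which overlapped, and its difference was 0.00 with a 95% interval from -0.55 to 0.55. CD59 (3950 and 3782 against 5014 and 4921) did not overlap, but its difference of 0.36 (95% interval -0.05 to 0.78) had an adjusted p of 0.340 by limma. The differences were 0.29 (95% interval -0.15 to 0.72) for CD46 and -0.16 (-0.80 to 0.48) for CD55, the regulator that accelerates the decay of the C3-cleaving enzymes. These intervals hold for the reported probe sets alone. The other probe sets gave 0.68 and 0.75 for CD46 and 0.37, 0.29, 0.80 and 1.23 for CD59. Those of CD55 gave 0.50 and 0.36, opposite in sign to the reported one. None of these passed. In all, 5 of the 9 genes were higher and 0 lower in CD10+ M1B26 cells, where 6.5% of all genes were called in either direction, and the median difference was 1.15 over the 9 genes and 0.01 over all genes tested.

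Of the 5 calls in M1B26, C3 passed without any 1 of the 4 sorted M1B26 arrays. Without CD10- replicate 2 or without CD10+ replicate 1, C3 alone passed, and without CD10+ replicate 2, C3, C1S and C1R passed, with the differences of the 5 genes between 0.90 and 2.32 in these 3 fits. Without CD10- replicate 1, CFB alone was lost. Marker lists of other cell types were measured beside these genes, and their part in the complement differences was not tested. The 8 mesenchymal markers had summed intensities of 8020 to 8257 in the CD10- and 14616 to 15547 in the CD10+ M1B26 arrays. Of the 4 of them tested, DCN was higher (4.64, limma adjusted p = 0.00117), while COL1A1 (0.48), VIM (0.30) and FAP (-0.76) did not pass. The 7 mammary epithelial markers with a probe set, of 10 listed, summed to 17908 to 22565 in CD10- and 10449 to 11541 in CD10+ arrays. Of the 6 tested, EPCAM (-4.09), CDH1 (-3.64) and KRT18 (-0.90) were lower, KRT8 was higher (0.94), and KRT5 (-0.42) and KRT14 (-1.61) did not pass. In bulk RNA, a change in the share of cells of a type and a change in RNA per cell cannot be told apart. The 8 leukocyte markers summed to 366 to 473 in CD10- and 260 to 278 in CD10+ arrays, with 0 of 4 tested past the threshold, and PTPRC, the pan-leukocyte gene, was not above background. The 5 endothelial markers summed to 56.6 to 77.8 and 92.4 to 106 (PECAM1 and TEK above background), and the 5 hepatocyte markers to 21.8 to 39.6 and 113 to 133 (TTR above background, with ALB at 4.17 and 7.61 in CD10- and 3.15 and 5.46 in CD10+ arrays); the tested genes of both lists did not pass.

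**Figure D2:**
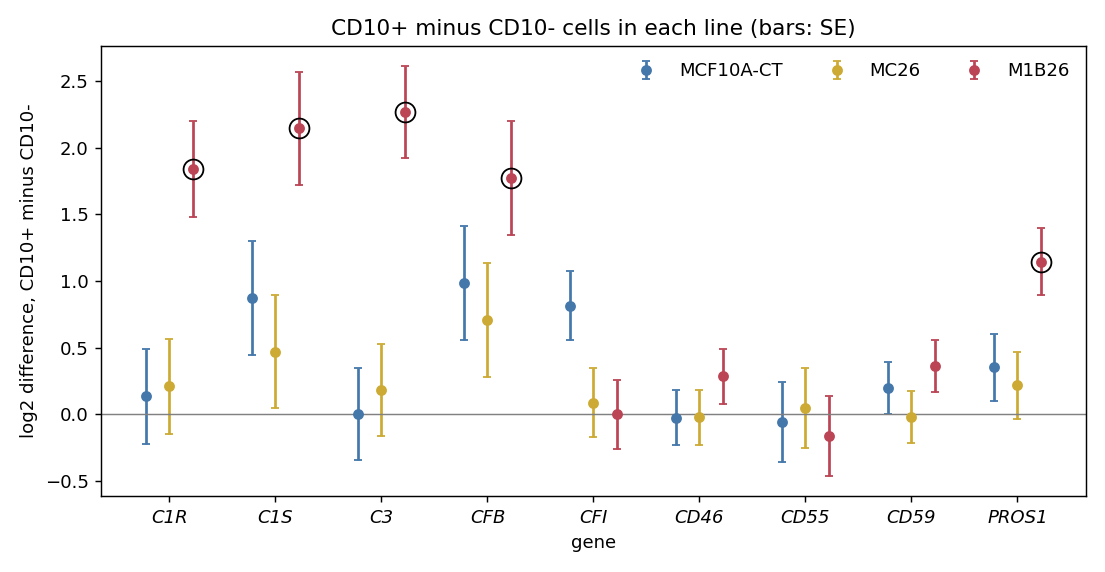
Log2 difference of CD10+ minus CD10- cells (vertical axis) for the 9 genes in MCF10A-CT, MC26 and M1B26, with bars showing the SE and black circles marking adjusted p under 0.05. The 5 circled points, C1R, C1S, C3, CFB and PROS1, all belong to M1B26 and lie between 1.15 and 2.27.

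In the control line, none of the 9 genes passed between the fractions. The arrays of CFB, CFI and C1S did not overlap, but the share of all genes without overlap was not counted, so nothing is read from this. MME read 9.73 and 11.3 in CD10- and 48.3 and 65.0 in CD10+ MCF10A-CT cells. CFB read 220 and 164 in CD10- and 540 and 264 in CD10+ MCF10A-CT cells, a difference of 0.99 (SE 0.43). CFI read 49.0 and 53.0 against 84.7 and 96.6, a difference of 0.82 (SE 0.26), and C1S read 113 and 113 against 226 and 192, a difference of 0.87 (SE 0.42). C3 (3253 and 4234 against 4015 and 3458) and C1R (238 and 384 against 291 and 378) overlapped, with differences of 0.01 (SE 0.35) and 0.13 (SE 0.36). By limma, 0 of the 9 genes passed, and 0% of all genes did. At an unadjusted p under 0.05 there were 2 of the 9, CFB and CFI, and 166 of all genes. The replicate numbers paired the sorted arrays, and in a fit of the sorted arrays alone with line and replicate number as a block, chosen after the data were seen, 3 of the 9 passed: CFB (limma adjusted p = 0.00770), C1S (limma adjusted p = 0.0223) and CFI (limma adjusted p = 0.0309), with 0.641% of all genes. That fit had 3 residual degrees of freedom and leaned fully on the spread common to all genes. C1R, C1S, CD59 and CFB are among the ENI10 genes, which the study picked from these 4 sorted MCF10A-CT arrays as marking the CD10+ fraction, so their direction there is not independent evidence.

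In MC26, no complement gene passed between the fractions. MME read 27.8 and 6.39 in CD10- and 69.8 and 90.7 in CD10+ MC26 cells. CFB read 83.9 and 47.5 in CD10- and 89.6 and 120 in CD10+ cells, with a difference of 0.71 (SE 0.43). C3, at 1821 and 1541 against 1334 and 2699, differed by 0.18 (SE 0.35) and its CD10+ arrays lay on both sides of the CD10- ones. C1S differed by 0.47 (SE 0.42, arrays overlapping). By limma 0 of the 9 genes passed, 0 had an unadjusted p under 0.05, and 0% of all genes passed; the blocked fit called 0 of the 9 and 0.173% of all genes.

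Averaged over the 3 lines, CFB was higher by 1.16 in CD10+ cells (SE 0.25, limma adjusted p = 0.0323) and C1S by 1.16 (SE 0.25, limma adjusted p = 0.0294), in a comparison where 1.14% of all genes were called. CFB and PROS1 were higher in the CD10+ array of all 6 same-numbered pairs, C1S, CFI and CD59 in 5, C1R, C3 and CD46 in 4 and CD55 in 3. The same counts were not made over all genes. CFB, C1S, CD59 and C1R are ENI10 genes picked from the sorted MCF10A-CT arrays. Their direction in the MCF10A-CT pairs, and the part of that line in their averages, is therefore not independent evidence. The average differences of C3 (0.82, adjusted p = 0.0651), PROS1 (0.57, adjusted p = 0.0782) and C1R (0.73, adjusted p = 0.128) did not pass with limma. With the blocked fit of the sorted arrays, these 3 genes passed too, with 9.19% of all genes called. Without the sorted MCF10A-CT arrays, the same 5 genes passed, with 2.77% of all genes called. The count of 2 was 0 or 1 when any 1 of 10 of the 12 sorted arrays was left out, the exceptions being MCF10A-CT CD10- replicate 1 and MC26 CD10+ replicate 1.

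Whether the CD10 difference itself differed between the lines was tested as a difference of differences. The fractions also differed in MME by 5.191 in M1B26, against 2.315 in MCF10A-CT and 2.465 in MC26. The part of this in the values below was not tested. The CD10 difference of C3 was larger in M1B26 than in MCF10A-CT by 2.26 (SE 0.49, limma adjusted p = 0.0337), the single call among the 9 genes where 1.38% of all genes were called. C1R (1.71, adjusted p = 0.138), C1S (1.27, adjusted p = 0.447), PROS1 (0.79, adjusted p = 0.413) and CFB (0.79, adjusted p = 0.731) did not pass with limma, and the blocked fit called C3, C1S and C1R, with 11.5% of all genes. The C3 call was lost without either CD10+ array of MCF10A-CT or M1B26, without MCF10A-CT CD10- replicate 2 and without M1B26 CD10- replicate 2. Against MC26, C3 again had a larger CD10 difference in M1B26, by 2.09 (SE 0.49), which stood at the threshold (limma adjusted p = 0.0501). Thus 0 of the 9 genes passed, where 1.27% of all genes were called. At an unadjusted p under 0.05 there were 4 of the 9 and 1369 of the 12171 genes tested. The blocked fit called C3, CFB, C1S, C1R and PROS1, with 10.9% of all genes. C3 passed when any 1 of 6 arrays was left out (either unsorted MC26 array, either MCF10A-CT CD10- array, MC26 CD10+ replicate 2 or M1B26 CD10- replicate 1). Between MC26 and MCF10A-CT, 0 of the 9 passed with limma, 0 had an unadjusted p under 0.05, and 0% of all genes passed.

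The unsorted lines asked how far the transformed lines differ from the control without a sort, and there CFI, C1S and PROS1 were higher in both. CFI read 33.3 and 23.3 in unsorted MCF10A-CT, 348 and 250 in MC26 and 553 and 430 in M1B26. The 3 lines did not overlap for CFI. It was higher by 3.36 in MC26 (SE 0.26, limma adjusted p = 7.49e-06, 10.2-fold) and by 4.08 in M1B26 (SE 0.26, limma adjusted p = 4.26e-07, 16.9-fold). Its other probe set gave 3.28 and 4.01.

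C1S read 20.3 and 8.48 in MCF10A-CT, 150 and 57.3 in MC26 and 211 and 138 in M1B26. Both derived lines lay above the control on every array, with differences of 2.72 in MC26 (SE 0.42, limma adjusted p = 6.25e-03) and 3.59 in M1B26 (SE 0.42, limma adjusted p = 5.04e-04) against a control mean near background. C1R read 31.3 and 44.3, then 142 and 77.9, then 178 and 125. It was higher by 1.97 in M1B26 (SE 0.36, limma adjusted p = 0.0154), while the MC26 difference of 1.47 (SE 0.36) did not pass (limma adjusted p = 0.126). PROS1 read 108 and 83.2 in MCF10A-CT, 222 and 271 in MC26 and 248 and 270 in M1B26. PROS1 RNA was higher by 1.36 in MC26 (SE 0.25, limma adjusted p = 0.0266) and by 1.44 in M1B26 (SE 0.25, limma adjusted p = 0.0121), and the difference of M1B26 from MC26 was 0.08 (95% interval -0.46 to 0.61). Whether the PROS1 probes also read the closely related PROS1 pseudogene was not tested.

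CFB read 28.9 and 23.9 in MCF10A-CT, 80.2 and 222 in MC26 and 84.6 and 64.8 in M1B26. All 4 arrays of the derived lines lay above the control, but the MC26 arrays differed widely from each other. The difference was 2.30 in MC26 (SE 0.43, limma adjusted p = 0.0279) and 1.46 in M1B26 (SE 0.43, limma adjusted p = 0.225). CD59 read 2051 and 1910, then 3461 and 4273, then 3431 and 4056. It passed in M1B26 (0.91, SE 0.19, limma adjusted p = 0.0429) and not in MC26 (0.96, SE 0.19, limma adjusted p = 0.0514), 2 values that differ by less than their SE. C3 read 1473 and 1130, then 1277 and 1829, then 2820 and 1964, with differences of 0.24 (SE 0.35) and 0.87 (SE 0.35) that did not pass. The 95% intervals of CD46 and CD55 held 0 in both comparisons.

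Thus 4 of the 9 genes were higher in unsorted MC26, with 0.32% of all genes called in either direction, and 5 of the 9 in unsorted M1B26, with 0.674% of all genes called, and none was lower. The 2 comparisons share the control arrays. Single arrays moved these counts. For MC26 the count was 1 without control replicate 2 and 2 without control replicate 1 or without MC26 replicate 2. For M1B26 it was 2 without control replicate 2 or M1B26 replicate 1 and 3 without control replicate 1 or M1B26 replicate 2. CFI passed in every one of these fits. Between unsorted M1B26 and MC26, 0 of the 9 genes passed with limma, where 0.0986% of all genes were called. At an unadjusted p under 0.05 there were 1 of the 9 (CFI, 0.72, SE 0.26) and 553 of the 12171 genes tested.

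Among sorted cells, CFI was higher in both derived lines and CFB lower in both, and CD59 was higher in both with the reported probe set. The 4 sorted MCF10A-CT arrays that all these differences rest on stood apart in 6 cell division genes, which were all called higher in the derived lines, with medians of 1.60 in MC26 and 1.65 in M1B26, and the part of this in the values below was not tested. As a mean of CD10- and CD10+ cells, CFB fell by 1.71 on the log2 scale from sorted MCF10A-CT to sorted MC26 (SE 0.30, limma adjusted p = 6.28e-04). From sorted MCF10A-CT to sorted M1B26 it fell by 1.72 (SE 0.30, limma adjusted p = 4.86e-04). CFI was higher by 1.97 in MC26 (SE 0.18, limma adjusted p = 8.71e-06) and by 2.64 in M1B26 (SE 0.18, limma adjusted p = 2.76e-07). CD59 was higher by 0.82 in sorted MC26 (SE 0.14, limma adjusted p = 4.27e-04) and by 1.20 in sorted M1B26 (SE 0.14, limma adjusted p = 2.08e-05), whereas 1 of its 4 other probe sets was lower by limma in sorted MC26 (-0.94, adjusted p = 0.0135). PROS1 was higher by 1.21 in M1B26 (SE 0.18, limma adjusted p = 1.28e-04), and its difference of 0.44 in MC26 (SE 0.18) did not pass (limma adjusted p = 0.0626). C3 fell by 1.06 in sorted MC26 (SE 0.24, limma adjusted p = 3.60e-03) and C1R by 0.85 (SE 0.25, limma adjusted p = 0.0162). CD46 fell by 0.40 in sorted MC26 (SE 0.15, limma adjusted p = 0.0430), a change that its 2 other probe sets gave with adjusted p of 0.180 and 0.128. CD55 fell by 1.08 in sorted M1B26 (SE 0.21, limma adjusted p = 1.00e-03), where it read 1245 and 1006 in CD10- and 953 and 1052 in CD10+ cells against 1625 and 3228 and 1747 and 2767 in MCF10A-CT. In all, 2 of the 9 genes were higher and 4 lower in sorted MC26, with 37.7% of all genes called, and 3 were higher and 2 lower in sorted M1B26, with 43.9% of all genes called. The median difference of all genes was 0.10 in the first and 0.25 in the second comparison, and of all genes called in the second, 4117 were higher and 1224 lower, against 2394 and 2413 once arrays were centred on the tested genes. Centring reversed the direction of none of the 9 genes' calls, but C3 then passed as lower in sorted M1B26 (-0.78).

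**Figure D3:**
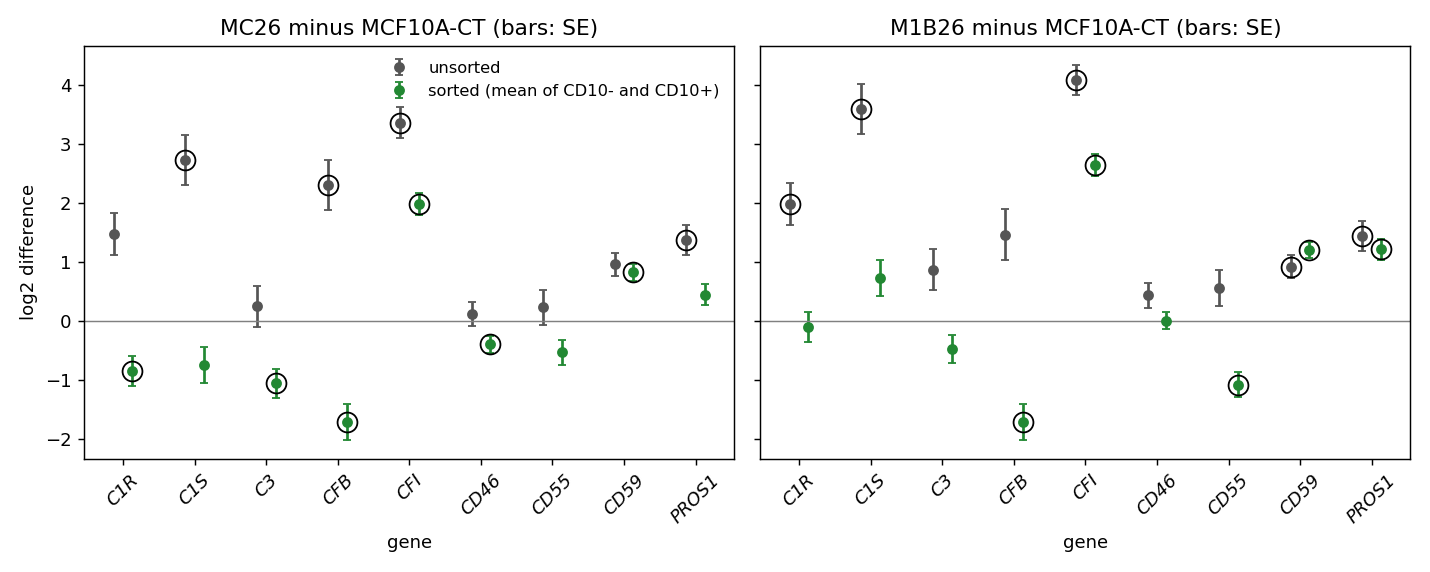
Log2 difference of MC26 (left) and M1B26 (right) from MCF10A-CT (vertical axis) for the 9 genes, in unsorted cells (grey) and as the mean of the CD10- and CD10+ fractions (green), with bars showing the SE and black circles marking adjusted p under 0.05. CFI, CD59 and PROS1 lie above 0 in both, whereas CFB lies above 0 unsorted (2.30 and 1.46) and below 0 sorted (-1.71 and -1.72).

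In the control line, sorted cells had higher levels of C1R, C1S, C3, CFB, CFI and PROS1 than unsorted cells. In MCF10A-CT, C1S was higher in the sorted fractions by 3.44 (SE 0.37, limma adjusted p = 9.52e-05), CFB by 3.30 (SE 0.37, limma adjusted p = 1.35e-04) and C1R by 3.05 (SE 0.31, limma adjusted p = 8.60e-05). C3 was higher by 1.53 (SE 0.30, limma adjusted p = 3.18e-03), CFI by 1.25 (SE 0.22, limma adjusted p = 2.04e-03) and PROS1 by 0.85 (SE 0.22, limma adjusted p = 0.0136). For these 6 genes each of the 4 sorted arrays lay above both unsorted ones, a separation whose share over all genes was not counted. With the reported probe sets, CD46 (0.27, SE 0.18), CD55 (0.62, SE 0.26) and CD59 (-0.06, SE 0.17) did not pass, so that 6 of the 9 genes were higher and 0 lower, where 22.2% of all genes were called. Both other probe sets of CD55 passed as higher (0.94 each, limma adjusted p = 0.010 and 0.017). A further probe set of CD59 also passed as higher (1.56, limma adjusted p = 0.00505), while its remaining ones and those of CD46 did not pass.

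In the derived lines few of these genes differed between sorted and unsorted cells. In MC26, 0 of the 9 genes passed with limma, where 0.822% of all genes were called. At an unadjusted p under 0.05 there were 1 of the 9 (C1R, 0.73, SE 0.31) and 1768 of the 12171 genes tested. In M1B26, CD55 alone passed and was lower in sorted cells by 1.02 (SE 0.26, limma adjusted p = 0.0382), where 4.21% of all genes were called. It read 2072 and 2227 in unsorted cells, against the sorted values above. The CD55 call was lost without any 1 of the 6 M1B26 arrays and without any 1 of the 4 sorted MC26 arrays, which enter through the shared spread. Its 2 other probe sets passed, with -0.98 and -1.28.

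Whether the difference of sorted from unsorted cells differed between the lines was itself tested. Against MCF10A-CT, this difference was lower in MC26 for CFB (-4.02, SE 0.53, limma adjusted p = 2.96e-03), C1S (-3.47, SE 0.52, limma adjusted p = 4.15e-03), C1R (-2.32, SE 0.44, limma adjusted p = 0.0107) and CFI (-1.38, SE 0.32, limma adjusted p = 0.0209), 4 of the 9 genes where 6.07% of all genes were called. In M1B26 it was lower for CFB (-3.18, SE 0.53, limma adjusted p = 4.13e-03), C1S (-2.87, SE 0.52, limma adjusted p = 5.88e-03), C1R (-2.08, SE 0.44, limma adjusted p = 9.75e-03), CD55 (-1.64, SE 0.37, limma adjusted p = 0.0126) and CFI (-1.44, SE 0.32, limma adjusted p = 0.0118), 5 of the 9 where 11.9% of all genes were called. These counts are of the reported probe sets. Both other probe sets of CD55 also passed in MC26 (-1.29 and -1.30). A further probe set of CD59 passed in MC26 (-2.14) and in M1B26 (-1.54), while its remaining ones did not. Without MC26 unsorted replicate 1 the count for MC26 was 2. The count for M1B26 was 3 without MCF10A-CT unsorted replicate 2 and 1 without M1B26 unsorted replicate 1. The 4 sorted MCF10A-CT arrays also stood apart in cell division: 6 genes of that process (MKI67, TOP2A, CCNB1, BUB1, CDK1 and AURKA) had a mean centred log2 level of -1.46 to -1.43 in the CD10- and -0.96 to -0.91 in the CD10+ arrays, against 0.51 to 0.61 in unsorted MCF10A-CT and -0.26 to 0.75 in the other lines. The part of this state in the complement differences was not tested.

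**Figure D4:**
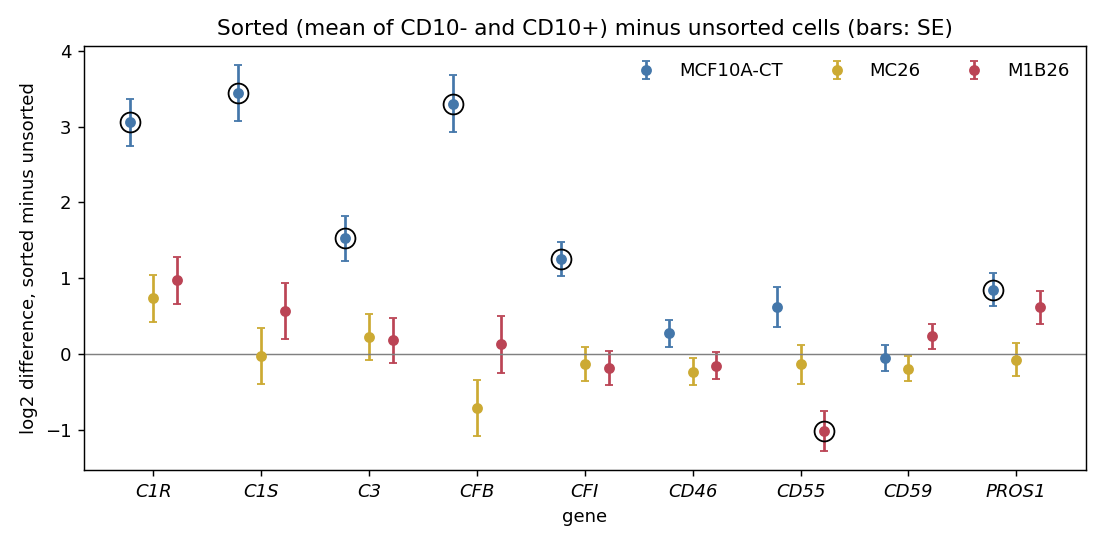
Log2 difference of sorted cells (mean of CD10- and CD10+) minus unsorted cells (vertical axis) for the 9 genes in each line, with bars showing the SE and black circles marking adjusted p under 0.05. In MCF10A-CT 6 genes are circled above 0, C1S, CFB and C1R at 3.05 or more, in MC26 none is, and in M1B26 CD55 alone is, at -1.02.

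Averaged over the lines, C1R (1.59), C1S (1.33), CFB (0.90), C3 (0.64) and PROS1 (0.46) were higher in sorted cells, 5 of the 9 genes where 15.2% of all genes were called. This average rested on the control line. Without its sorted arrays, the mean of MC26 and M1B26 gave a call for C1R (0.85, limma adjusted p = 0.0188) and for CD55 (-0.58, limma adjusted p = 0.0154) alone, and CFB turned to -0.29 (limma adjusted p = 0.478). The count of 5 was 3 without MCF10A-CT unsorted replicate 2, MC26 unsorted replicate 1 or M1B26 unsorted replicate 2.

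Averaged over the 3 populations, the line differences mix the values above and are given for their calls. In MC26 against MCF10A-CT, CFI (2.43), CD59 (0.87) and PROS1 (0.75) were higher and C3 lower (-0.63), with 31.2% of all genes called. In M1B26 against MCF10A-CT, CFI (3.12), C1S (1.68), PROS1 (1.29), CD59 (1.11) and C1R (0.59) were higher and CD55 lower (-0.54), with 34.6% of all genes called. M1B26 exceeded MC26 in C1S (1.27), CFI (0.69) and PROS1 (0.54), with 8.09% of all genes called.

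Probe sets of 1 gene did not always run together. The further probe sets of CFI, C1S and CD55 were above the filter and gave the same direction as the reported one for every unsorted and sorted difference from MCF10A-CT. Those of CD55 passed as lower also in sorted MC26 (-0.88 and -0.86). For CD59, 3 of the 4 other probe sets gave positive differences of both derived lines from MCF10A-CT in sorted cells, and the remaining one gave -0.94 in MC26 and -0.26 in M1B26 there, while it gave 1.20 and 1.28 in unsorted cells. The direction of CD59 in sorted cells therefore depended on the probe set. For CD46, its 2 other probe sets were lower in sorted than unsorted cells over the 3 lines (-0.59 and -0.56, both past the threshold), where the reported one gave -0.04. With the second probe set of C1S, the average CD10 difference of 0.96 did not pass. Among sorted cells, the reported C1S probe set differed from MCF10A-CT by -0.75 in MC26 and 0.72 in M1B26, and neither passed. The second one gave -0.44 in MC26, which did not pass, and passed as higher in M1B26 (1.08, limma adjusted p = 0.0299). The second probe set of CFB lay below the filter, so that CFB rests on 1 probe set, as do C3, C1R and PROS1.

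Across the 9 group means, the level of C1R followed that of C1S (Pearson r = 0.92) and C3 (r = 0.85), C3 followed CFB (r = 0.75), and CFI followed CD59 (r = 0.93) and PROS1 (r = 0.84). CD55 ran against CD59 (r = -0.62), and CD46 and CFI were hardly related (r = 0.16). These are descriptions over 9 points that share lines and arrays. Among all genes tested, the patterns most like each member over the 9 group means were MIR210HG (r = 0.996), GADD45B and SEZ6L2 for C1R, PRRT3 (0.968), EGFL7 and NINL for C1S, TMEM43 (0.988), LBH and BOC for C3, and DHRS12 (0.973), CPQ and LINC02482 for CFB. For the regulators they were PTPN22 (0.964), KIAA1549L and SAMSN1 for CFI, ZBTB4 (0.974), STX8 and ERO1B for CD46, AKR1C2 (0.968), AK9 and MPZL3 for CD55, RASSF8 (0.992), VPS37A and VGLL3 for CD59, and TREM1 for PROS1 (0.979), followed by TMEM230 and UGCG.

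Most other listed genes of the complement system lay below the level filter in these cells, and some had no probe set of their own and were not measured. Of 23 other components, 21 had a probe set and 3 were tested, C5, the alternative-pathway protease CFD and the lectin-pathway protease MASP1. Of 14 other regulators, 10 had a probe set and 3 were tested (C4BPA, CLU and THBD). All 10 receptors had a probe set, and 4 were tested (C3AR1, ITGAM, ITGB2 and C1QBP). None of these 10 genes passed in any CD10 comparison. The partners of C1R and C1S in the C1 complex, C1QA, C1QB and C1QC, and their substrate C2 were not among the genes tested. C3AR1, the receptor of the C3a fragment, was higher than in MCF10A-CT by 1.15 in MC26 (SE 0.39, limma adjusted p = 0.0351) and by 1.84 in M1B26 (SE 0.39, limma adjusted p = 2.78e-03) as means of the 3 populations. CLU, which binds forming terminal pores, fell by 1.49 in MC26 (SE 0.25, limma adjusted p = 6.85e-04) and by 0.75 in M1B26 (SE 0.25, limma adjusted p = 0.0308) in the same comparisons. The other calls there were THBD (0.69, higher) and the integrin chain ITGB2 (-0.95, lower) in MC26 and C5 (-0.77, lower) in M1B26. Thus 4 of these 10 genes were called in MC26 and 3 in M1B26, in comparisons where 31.2% and 34.6% of all genes were. These means include the sorted MCF10A-CT arrays, which stood apart in cell division genes. Among unsorted cells, none of the 10 genes passed in MC26 or M1B26 against MCF10A-CT, where 0.32% and 0.674% of all genes were called.

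Protein S also activates the TAM receptor kinases, and 4 of 6 genes of these receptors, their second ligand and the protein C receptor were tested (PROCR, GAS6, TYRO3 and AXL). GAS6, the other TAM ligand, read 408 and 582 in CD10- and 1056 and 912 in CD10+ M1B26 cells. Like PROS1 it was higher there, by 1.01 (SE 0.28, limma adjusted p = 0.0397), the 1 call among the 4 genes in that comparison, where 6.5% of all genes were called. AXL fell by 1.74 in MC26 against MCF10A-CT as a mean of the 3 populations (SE 0.28, limma adjusted p = 5.23e-04). It was the 1 call among the 4 genes there, where 31.2% of all genes were called. Among unsorted cells, none of the 4 passed in MC26 or M1B26 against MCF10A-CT (0.32% and 0.674% of all genes called). Over the 3 populations, 1 of the 4 was higher in M1B26 than in MCF10A-CT (34.6% of all genes called). Against MC26, 2 of the 4 were higher in M1B26 (8.09%). Over the 3 lines, 1 of the 4 was higher in sorted than in unsorted cells (15.2%).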

How the data were processed

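Expression was read from 18 Affymetrix HG-U133 Plus 2.0 arrays, 2 for each of 9 groups taken from the sample labels. The deposited values are linear intensities; per the labels the authors made them with Affymetrix Expression Console and MAS5, and versions are not given in the sources used here. The methods also name RMA, which the values do not show: they are linear, and the upper quartiles of the arrays run from 95.1 to 124. The median of the array medians is 16.7. The number of arrays limits the precision. Array correlations ran from 0.901 to 0.957.

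From these, log2(intensity + 1) was computed with Python 3.11.15, numpy 2.4.6 and pandas 2.3.3. Of 54675 probe sets, 62 were controls, 41091 had 1 gene, 1801 several and 11721 none. Each of 19775 genes was read from its probe set of highest mean, and the 12171 genes above the median probe set mean (log2 3.93, intensity 14.3) were tested with limma 3.58.1 in R 4.3.3 (lmFit, then eBayes with an intensity trend), 9 group means over all 18 arrays. P-values were two-sided, adjusted by Benjamini-Hochberg within each of 21 comparisons and read at 0.05. SE is limma's, and a fold of a low gene is understated on this scale. The script was tested on simulated data. Figures were drawn with matplotlib 3.10.9.

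Deviations from group means correlated between same-numbered CD10- and CD10+ arrays (MCF10A-CT 0.635, MC26 0.361, M1B26 0.185), so the replicate numbers were taken to pair the sorted arrays; with unsorted arrays they ran from -0.015 to 0.122. The 9 genes, the lists and the comparisons were chosen with earlier results of these data known, and 7 comparisons (sorted with unsorted cells per line, their differences, and the lines among sorted cells) after the data were seen. Named are the 9 genes, MME, at most 8 other complement genes with a call, and the 3 genes of most like pattern per member. The partners of protein S and the cell division genes were named as lists. Alternatives tried were quantile normalization, centring, a pseudocount of 16, no filter, no trend, an unmoderated test, the compared groups alone, other probe sets and their mean, a replicate block, and leaving out each array or the sorted MCF10A-CT arrays.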

Additional observations from a re-analysis of the deposited data

Results flagged for a closer look

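The CD10 difference of C3 was larger in M1B26 than in MCF10A-CT by 2.26 on the log2 scale (limma adjusted p = 0.0337), by the interaction term, which is why it is listed here.

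The difference of sorted from unsorted cells also differed between lines by interaction terms, in comparisons added after the data were seen. Against MCF10A-CT the interaction in MC26 was -4.02 for CFB, -3.47 for C1S, -2.32 for C1R and -1.38 for CFI. In M1B26 it was -3.18 for CFB, -2.87 for C1S, -2.08 for C1R, -1.64 for CD55 and -1.44 for CFI. All 9 values rest on the 4 sorted MCF10A-CT arrays, which stood apart in cell division genes, and the part of that state was not tested.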

How the results depend on the processing

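With 2 arrays a group, the SE of a difference between 2 groups had a median of 0.30 over all genes, and the C1S level of unsorted MCF10A-CT, near background, leaves the size of its differences uncertain. Counts below are of the 9 genes past the threshold, and where they moved the cause was not tested.

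With the replicate number of each line as a block, the count for the mean CD10 difference was 5 in place of 2, for the CD10 difference of M1B26 over MCF10A-CT 2 in place of 1, for that over MC26 2 in place of 0, and for sorted against unsorted M1B26 2 in place of 1. In the block fit of the sorted arrays alone, MCF10A-CT gave 3 in place of 0, the mean CD10 difference 5, M1B26 over MCF10A-CT 3 and M1B26 over MC26 5. The mean CD10 difference gave 4 under quantile normalization and under centring, 0 with the mean of all probe sets, without the intensity trend and in the unmoderated test, and 5 without the sorted MCF10A-CT arrays. The CD10 difference of M1B26 over MCF10A-CT gave 0 without the trend and unmoderated. That over MC26 gave 1 with a pseudocount of 16, under quantile normalization, under centring and without the sorted MCF10A-CT arrays, and 3 from the compared groups alone. Unsorted MC26 against MCF10A-CT gave 1 in place of 4 unmoderated and from the compared groups alone, and unsorted M1B26 2 in place of 5 unmoderated. Sorted against unsorted M1B26 gave 0 without the filter, without the trend and unmoderated, and 2 from the compared groups alone. The mean of sorted against unsorted cells gave 2 in place of 5 without the sorted MCF10A-CT arrays, and the sorting difference of MC26 over MCF10A-CT 1 in place of 4 unmoderated.

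Among differences past the threshold with the reported or the other setting, the direction turned for 2 genes. CFB, sorted against unsorted over the lines, was -0.22 with its second probe set and -0.29 without the sorted MCF10A-CT arrays. CD59 read by 1 of its 4 other probe sets gave -0.23 in MC26 over the 3 populations, -0.94 in sorted MC26 and -0.26 in sorted M1B26, all against MCF10A-CT, 1.56 for sorted against unsorted MCF10A-CT and -1.54 for the sorting difference of M1B26.

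With each array left out in turn, the counts ran from 0 to 0 for the CD10 comparisons in MCF10A-CT and MC26, from 1 to 5 in M1B26, from 0 to 2 for their mean, and for the CD10 differences from 0 to 0 (MC26 over MCF10A-CT), 0 to 1 (M1B26 over MCF10A-CT) and 0 to 1 (M1B26 over MC26). Unsorted, they ran from 1 to 5 for MC26, 2 to 5 for M1B26 and 0 to 0 between these. Over the 3 populations they ran from 3 to 5, 4 to 7 and 2 to 4 in the same order. For sorted against unsorted cells they ran from 3 to 5 (mean), 5 to 7 (MCF10A-CT), 0 to 0 (MC26) and 0 to 1 (M1B26), for the sorting differences from 2 to 6 and 1 to 6, and for the lines among sorted cells from 4 to 8 and 5 to 6. Under the settings that kept all arrays, no other count of the 9 genes moved by over 1.5 times.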
